A study of Homo sapiens with 6 samples.

Results

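The long-chain acyl-CoA synthetases ACSL1, ACSL3, ACSL4, ACSL5 and ACSL6 and the carnitine palmitoyltransferases CPT1A, CPT1B, CPT1C and CPT2 are the 9 genes described here. They were taken by gene symbol from the 61806 genes of the deposited table, and 8 of the 9 held enough counts to be tested. RNA was sequenced from cells labelled HepG2, an established human hepatoma line, and described as CD133-positive. CD133 is the surface glycoprotein that PROM1 encodes. The 6 libraries form 2 groups of 3: control libraries, titled NC with a genotype given as WT, and libraries of cells with LAPTM4B knocked down, titled shLAP. LAPTM4B is a transmembrane protein of the lysosome. The labels name neither the knockdown construct nor its time, and nothing states that the libraries came from separate cultures. The p-values therefore describe the spread among these 6 libraries, which may be technical.

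Fatty acids enter metabolism as acyl-CoA esters. ACSL enzymes make these esters from long-chain fatty acids on the endoplasmic reticulum, the outer mitochondrial membrane and other membranes, and the ester can then go to glycerolipids, phospholipids or oxidation. For oxidation in mitochondria, CPT1 on the outer membrane exchanges the CoA for carnitine, a carrier moves the acylcarnitine inward, and CPT2 on the inner membrane restores the acyl-CoA. CPT1 is inhibited by malonyl-CoA, the first committed intermediate of fatty acid synthesis. In liver, CPT1A is the main CPT1 isoform and ACSL1 a main synthetase.

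Counts summed to between 15204269 and 19987318 per library. LAPTM4B was at 102 ± 3.40 FPKM (SD, n = 3) in control and 73.9 ± 1.71 FPKM in knockdown libraries, or -0.53 on the log2 scale (SE 0.04; edgeR adjusted p = 3.25e-12), with no overlap between the groups. The fall of the target was 1.44-fold and did not pass a test against a minimum change of 1.5-fold. PROM1 itself was very low despite the description of the cells, at 0.0517 to 0.167 CPM (counts scaled to library totals adjusted by trimmed-mean factors) in control and 0.388 to 0.765 CPM in knockdown libraries, and was not tested. Of 12 hepatocyte markers 3 (ALB, APOA1 and APOB) had no count in any library, and the summed level of the 12 was 19.5 to 21.3 CPM in control and 9.70 to 10.5 CPM in knockdown libraries. HepG2 cells are known to make albumin and these apolipoproteins, so the zeros go against the label of the line; FABP1, the liver fatty acid binding protein gene, also had no count. The summed level of 5 adipocyte markers was 8.36 to 9.90 and 2.04 to 2.72 CPM, with the lipase gene LIPE the highest of them, and that of 6 fibroblast markers 9.92 to 12.9 and 16.5 to 18.9 CPM. Of 5 muscle markers 3 (MYH7, TNNT2 and MYOD1) had no count in any library and the sum stayed at or below 0.637 CPM. The sum of 5 neuron markers was 22.7 to 26.5 and 18.1 to 20.1 CPM, with SNAP25 the highest, although 3 of the 4 tested were called higher and 1 lower. The sum of 5 leukocyte markers was 3.31 to 4.73 and 1.36 to 2.45 CPM, and that of 5 endothelial markers 52.0 to 56.0 and 60.2 to 66.9 CPM. Of the 2 endothelial markers tested 1 was called higher and 1 lower, and ESAM was the highest of the 5. Among those tested, 3 of 4 hepatocyte, 1 of 2 leukocyte and 1 of 1 adipocyte markers were called lower, and 2 of 3 fibroblast markers higher. The part of these markers in the results below was not tested, and in bulk libraries fewer cells of a type and less RNA per cell cannot be told apart.

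The promoters of the 5 most abundant members are shown because 4 of these genes fell and 1 rose. They are 300 bases each (250 before and 50 after a transcription start), from RefSeq on GRCh38.p14, and where RefSeq lists several starts the one nearest the 5′ end of the deposited gene was taken. Windows were found for 8 of the 9 members, all but CPT1B, and the starts used for ACSL1 and ACSL5 lay 850 and 1152 bases from the 5′ end of the deposited gene. The windows are chr4:184825919-184826218 (minus strand), chr10:112375018-112375317 (plus), chrX:109733208-109733507 (minus), chr2:222860786-222861085 (plus) and chr11:68844228-68844527 (minus). Capitals mark the GC box GGGCGG, the CCAAT box and the TEAD motif CATTCC on either strand.
ACSL1: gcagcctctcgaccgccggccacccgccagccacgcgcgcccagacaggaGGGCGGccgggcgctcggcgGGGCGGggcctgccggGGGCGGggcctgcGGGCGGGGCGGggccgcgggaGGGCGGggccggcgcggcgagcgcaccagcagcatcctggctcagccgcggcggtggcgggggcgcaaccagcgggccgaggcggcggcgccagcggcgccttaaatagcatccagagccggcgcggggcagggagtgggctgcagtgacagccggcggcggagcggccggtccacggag
ACSL5: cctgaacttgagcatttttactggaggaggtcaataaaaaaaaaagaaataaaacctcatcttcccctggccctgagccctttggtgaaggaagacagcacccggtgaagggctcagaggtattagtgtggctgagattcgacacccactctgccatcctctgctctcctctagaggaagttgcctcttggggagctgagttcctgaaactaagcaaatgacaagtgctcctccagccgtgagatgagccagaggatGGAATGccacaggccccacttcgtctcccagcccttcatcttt
ACSL4: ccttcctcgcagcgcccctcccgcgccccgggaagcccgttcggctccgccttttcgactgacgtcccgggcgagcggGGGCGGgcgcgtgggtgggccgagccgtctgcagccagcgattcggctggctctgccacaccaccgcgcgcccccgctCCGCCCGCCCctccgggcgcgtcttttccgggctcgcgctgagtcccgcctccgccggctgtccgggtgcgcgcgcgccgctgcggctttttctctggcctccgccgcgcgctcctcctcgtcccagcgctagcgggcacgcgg
ACSL3: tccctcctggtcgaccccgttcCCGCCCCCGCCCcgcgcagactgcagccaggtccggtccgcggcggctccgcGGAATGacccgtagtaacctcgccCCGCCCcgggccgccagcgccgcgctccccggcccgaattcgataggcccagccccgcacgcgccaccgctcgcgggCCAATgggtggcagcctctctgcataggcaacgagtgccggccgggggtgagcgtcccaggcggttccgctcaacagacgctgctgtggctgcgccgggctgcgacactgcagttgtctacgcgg
CPT1A: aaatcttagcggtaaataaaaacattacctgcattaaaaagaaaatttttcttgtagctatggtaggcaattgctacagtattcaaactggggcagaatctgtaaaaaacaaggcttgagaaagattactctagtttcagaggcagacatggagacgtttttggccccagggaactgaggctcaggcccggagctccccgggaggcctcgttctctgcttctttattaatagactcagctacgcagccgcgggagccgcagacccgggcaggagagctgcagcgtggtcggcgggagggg
The GC content of the ACSL1, ACSL4 and ACSL3 windows was 82.3%, 77.7% and 74.0%, above the upper quartile of all 35116 listed promoters (68.0%). The ACSL5 and CPT1A windows were at 51.0% and 50%, between the lower quartile of 47.0% and the median of 58.7%. The GC box occurred 6 times for ACSL1, with 1 pair sharing 1 base, 3 times for ACSL3, 3 times for ACSL4, with 1 pair sharing 2 bases, and not in the ACSL5 and CPT1A windows; 45% of all promoters hold it. The TEAD motif occurred once each for ACSL3 and ACSL5 (14.0% of all promoters) and the CCAAT box once for ACSL3 (34.6%). None of these 5 windows held the hypoxia response core ACGTG (21.4% of all promoters), a sterol regulatory element (0.154%) or the PPAR and RXR direct repeat with a spacer of 1 base (0.0228%). These are letter matches in one window per gene. The sterol element and the direct repeat were each searched as an exact string with 1 free base. These strings occur in only 54 and 8 of the 35116 listed promoters. Their absence from 5 windows therefore cannot show whether these promoters lack such sites, since sites with other letters were not searched.

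LAPTM4B knockdown libraries held less of every tested ACSL transcript and slightly more CPT1A. All 4 ACSL genes tested fell, by 1.60- to 4.67-fold, CPT1C and CPT2 fell, CPT1A rose 1.12-fold, and CPT1B did not pass. So 6 of 8 members tested were lower and 1 higher at an edgeR adjusted p under 0.05, where 27.9% of the 16354 genes tested were lower and 28.0% higher. Since a change of any size was called for so many genes, a minimum change of 1.5-fold was also tested: 5 of 8 members were lower past it and 0 higher, against 7.66% and 4.32% of all genes tested. The median log2 change was -0.77 over the 8 members, -1.31 over the 4 ACSL genes, -0.13 over the 4 CPT genes and 0.01 over all genes tested. The split of all calls differed between fits, which differ in test, normalization and gene filter as well as in scale. It was 4584 higher and 4559 lower genes by edgeR, 4496 and 2915 by limma on log2(FPKM + 0.1), and 5312 and 2330 by limma on TPM.

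**Figure D1:**
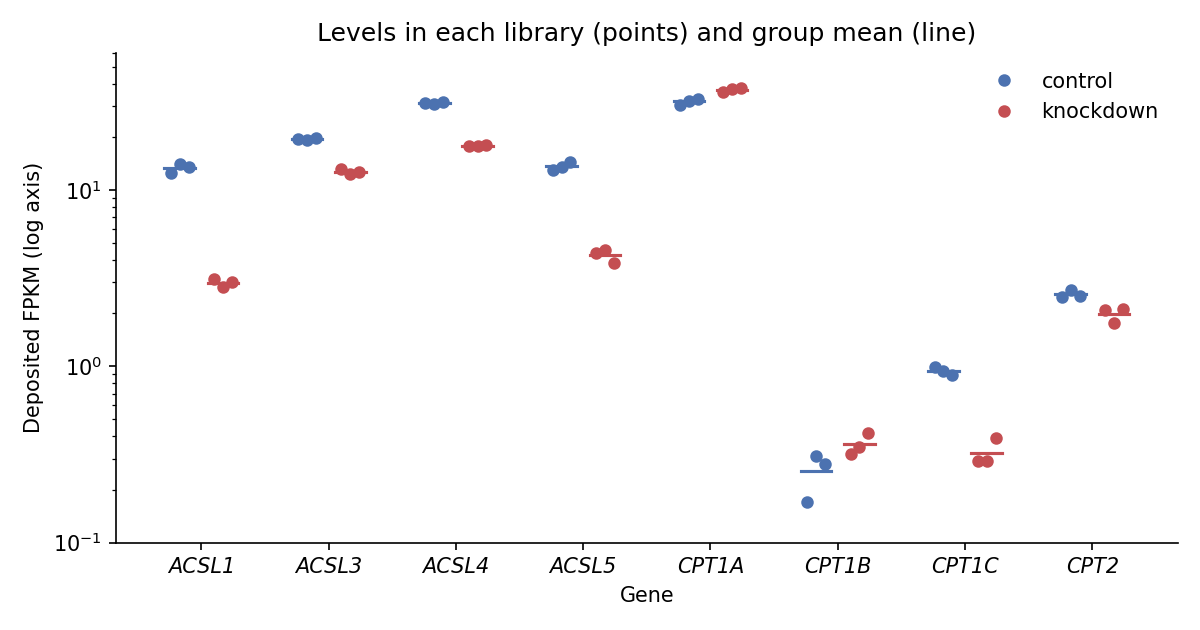
Deposited FPKM (log axis) of the 8 members with counts in every library, one point per library, with a line at the mean of each group of 3. The 4 ACSL genes, CPT1C and CPT2 sit lower in all 3 knockdown libraries. CPT1A and CPT1B sit higher, although the change of CPT1B did not pass. ACSL6 is not drawn because it was at 0.00 FPKM throughout.

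ACSL1, the isoform that predominates in adipose tissue and serves both storage and oxidation, fell most. The gene (chromosome 4, 184755595 to 184826818, minus strand, hg38) was at 12.44, 14.08 and 13.60 FPKM in control replicates 1 to 3. In the knockdown replicates it was at 3.12, 2.81 and 3.02 FPKM. Every knockdown library was far below every control library, and the fitted log2 change was -2.22 (SE 0.07; edgeR adjusted p = 1.52e-20), or 4.67-fold lower. This change was also past a minimum of 1.5-fold (edgeR adjusted p = 3.15e-18) and of 2-fold.

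ACSL5, an isoform of mitochondria and endoplasmic reticulum known best from intestine and liver, followed. The gene (chromosome 10, 112374116 to 112428379, plus strand) was at 13.09, 13.58 and 14.50 FPKM in control libraries and at 4.38, 4.59 and 3.87 FPKM in knockdown libraries. The groups were well apart and the fitted log2 change was -1.74 (SE 0.07; edgeR adjusted p = 4.95e-17), or 3.35-fold lower. It shares 144 exonic bases, 3.40% of its exons, with ZDHHC6 on the opposite strand, and no source used here states whether counting used strand. ZDHHC6 moved the other way, with 1458 to 1823 counts in control and 1705 to 1823 in knockdown libraries and a log2 change of 0.24 (edgeR adjusted p = 3.63e-05).

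ACSL4 prefers arachidonate and other polyunsaturated fatty acids, and its products feed phospholipids whose peroxidation is part of ferroptosis. It was the most abundant ACSL transcript in both groups. The gene (chromosome X, 109624244 to 109733403, minus strand) was at 31.22, 30.80 and 31.66 FPKM in control libraries. It was at 17.91, 17.72 and 17.97 FPKM in knockdown libraries, with very little spread within either group. The log2 change was -0.87 (SE 0.04; edgeR adjusted p = 2.95e-17), or 1.82-fold lower.

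ACSL3, which sits on endoplasmic reticulum and nascent lipid droplets, fell least of the 4. The gene (chromosome 2, 222860942 to 222944639, plus strand) was at 19.46, 19.35 and 19.87 FPKM in control and 13.21, 12.31 and 12.68 FPKM in knockdown libraries. The groups did not overlap, and the log2 change was -0.68 (SE 0.04; edgeR adjusted p = 2.01e-14), or 1.60-fold lower. Against a minimum change of 1.5-fold it passed with an edgeR adjusted p of 0.0195, but not without control replicate 3 (0.0512), knockdown replicate 2 (0.147) or knockdown replicate 3 (0.0884).

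ACSL6, an isoform of brain and testis (chromosome 5, 131949973 to 132012243, minus strand), was practically undetected. It had 0 counts in 5 libraries and 1 count in knockdown replicate 3, and it was not tested. A count of 0 allows up to 3 counts, or 0.150 to 0.197 CPM of the plain library totals, which covers counting error only.

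**Figure D2:**
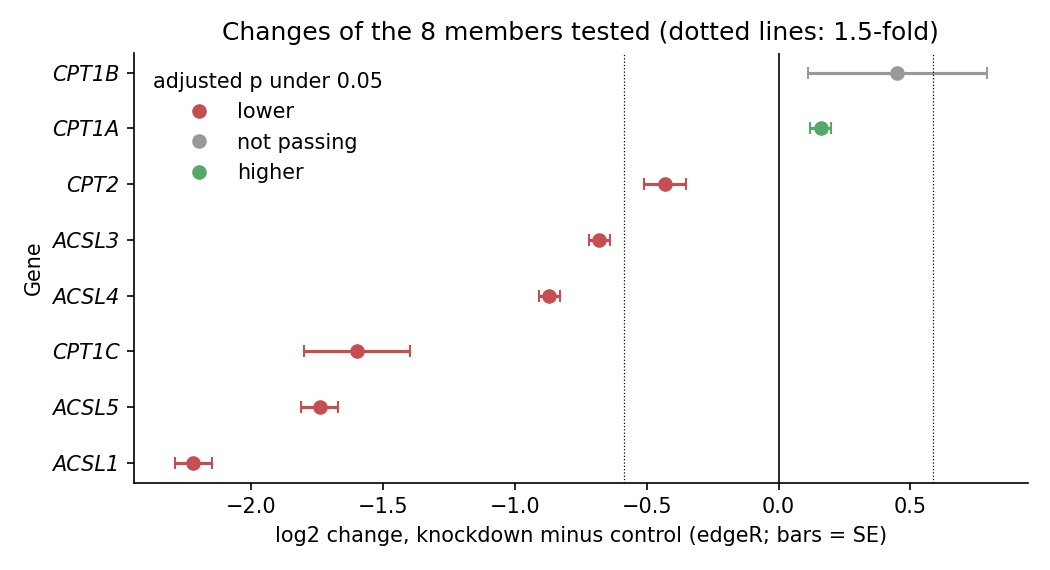
log2 change (knockdown minus control, edgeR) of the 8 members tested, with bars of 1 SE and dotted lines at a 1.5-fold change; color gives the call at an adjusted p under 0.05. ACSL1, ACSL5 and CPT1C lie furthest to the left at -2.22, -1.74 and -1.60, and CPT1A and CPT1B lie to the right of 0, CPT1B with a wide error.

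CPT1A, the liver-type isoform at the malonyl-CoA-sensitive entry to mitochondria, was the only member called higher. The gene (chromosome 11, 68754620 to 68844410, minus strand) was at 30.48, 32.08 and 33.02 FPKM in control and at 35.92, 37.40 and 38.21 FPKM in knockdown libraries. All knockdown libraries were above all control libraries, but the step was small, at 0.16 on the log2 scale (SE 0.04; edgeR adjusted p = 9.99e-04), or 1.12-fold. It was not past a minimum change of 1.5-fold, or of 1.2-fold. FPKM shows a slightly larger step than edgeR because the deposited FPKM use plain library totals, whereas the trimmed-mean factors were 0.970 to 0.987 in control and 1.02 to 1.03 in knockdown libraries.

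CPT2, which completes the transfer inside mitochondria, moved the other way from a much lower level. The gene (chromosome 1, 53196792 to 53214197, plus strand) was at 2.48, 2.71 and 2.51 FPKM in control and 2.09, 1.76 and 2.11 FPKM in knockdown libraries. The groups did not overlap, and the log2 change was -0.43 (SE 0.08; edgeR adjusted p = 9.98e-05), or 1.35-fold lower. The call was lost by limma on TPM (adjusted p = 0.0509). The ratio of CPT1A to CPT2 FPKM was 12.3, 11.8 and 13.2 in control and 17.2, 21.2 and 18.1 in knockdown libraries, without overlap.

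CPT1C, a neuronal isoform of the endoplasmic reticulum with little transferase activity, fell 3.02-fold from a low level. The gene (chromosome 19, 49690898 to 49713731, plus strand) had 107, 86 and 104 counts in control libraries, or 0.99, 0.94 and 0.89 FPKM. It had 26, 26 and 37 counts, or 0.29, 0.29 and 0.39 FPKM, in knockdown libraries. The groups were clearly apart, by -1.60 on the log2 scale (SE 0.20; edgeR adjusted p = 2.17e-07).

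CPT1B, the isoform of heart and skeletal muscle (chromosome 22, 50568861 to 50578465, minus strand), was lower still. It had 13, 20 and 23 counts in control and 20, 22 and 28 in knockdown libraries, and its log2 change of 0.45 (SE 0.34) did not pass (edgeR adjusted p = 0.270). As FPKM the groups did not overlap (0.17, 0.31 and 0.28 against 0.32, 0.35 and 0.42), but they did once trimmed-mean factors were applied. Of its exonic bases 66.4% also belong to the read-through gene CHKB-CPT1B, which had 22 to 38 counts, so reads may have been divided between them.

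FPKM is per length, so it also orders the members. In control libraries CPT1A (31.9 ± 1.28 FPKM) and ACSL4 (31.2 ± 0.430) were level, with overlapping ranges. ACSL3 came next at 19.6 ± 0.274, then ACSL5 (13.7 ± 0.716) and ACSL1 (13.4 ± 0.843), whose ranges overlapped, and then CPT2 (2.57 ± 0.125), CPT1C (0.940 ± 0.05), CPT1B (0.253 ± 0.0737) and ACSL6 (n = 3 each). In knockdown libraries the ranges of the leading members were all separate, with CPT1A at 37.2 ± 1.16 FPKM, ACSL4 at 17.9 ± 0.131, ACSL3 at 12.7 ± 0.452, ACSL5 at 4.28 ± 0.370, ACSL1 at 2.98 ± 0.158 and CPT2 at 1.99 ± 0.197. CPT1B (0.363 ± 0.0513) and CPT1C (0.323 ± 0.0577) overlapped. The order at the top rests on the deposited exonic lengths of ACSL3 (14436 bases) and ACSL4 (9971 bases), which GENCODE release 29 gives as 7240 and 6415. With the latter, ACSL4 (48.5 ± 0.668) and ACSL3 (39.0 ± 0.538) stood above CPT1A (31.9 ± 1.29) in control libraries, and CPT1A (37.2 ± 1.16) was above ACSL4 (27.8 ± 0.197) and ACSL3 (25.4 ± 0.898) in knockdown libraries.

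The make-up of the ACSL pool changed because its members fell unequally. ACSL4 made up 41.0%, 39.6% and 39.8% of summed ACSL FPKM in control and 46.4%, 47.3% and 47.9% in knockdown libraries. ACSL3 went from 25.5%, 24.9% and 25% to 34.2%, 32.9% and 33.8%. Both shares were higher in every knockdown library although both transcripts fell. ACSL1 went from 16.3%, 18.1% and 17.1% to 8.08%, 7.51% and 8.04%, and ACSL5 from 17.2%, 17.5% and 18.2% to 11.3%, 12.3% and 10.3%. The ratio of ACSL4 to ACSL1 FPKM was 2.34 ± 0.162 and 6.0 ± 0.286 (SD, n = 3). These are descriptions without a test.

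**Figure D3:**
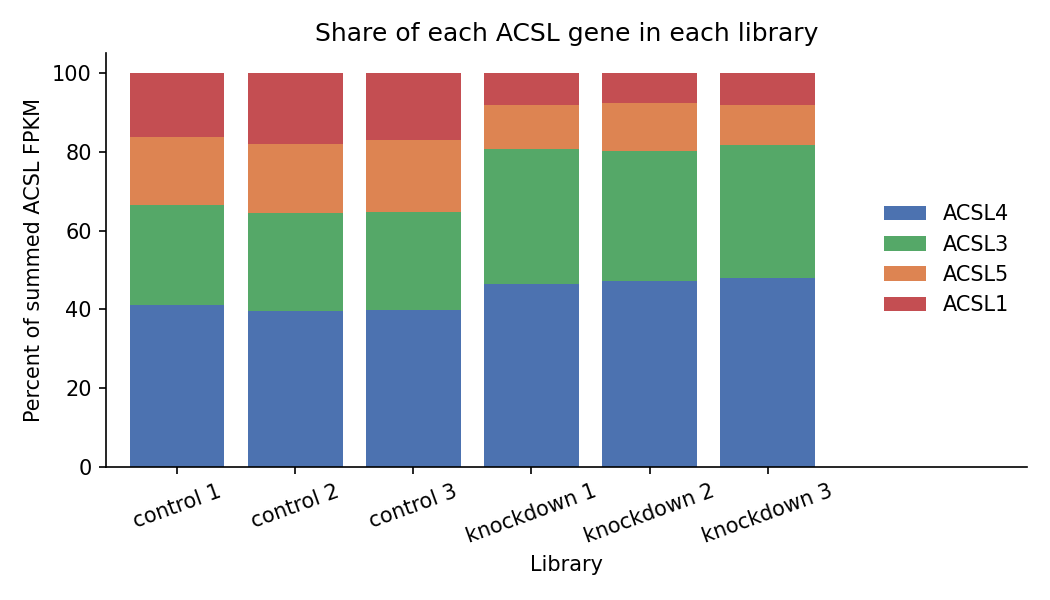
Percent of summed ACSL FPKM held by each gene in each of the 6 libraries, as stacked bars that reach 100. ACSL4 and ACSL3 take a larger part and ACSL1 and ACSL5 a smaller part of every knockdown bar; ACSL6 was at 0.00 FPKM.

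Summed ACSL FPKM was 76.2, 77.8 and 79.6 in control and 38.6, 37.4 and 37.5 in knockdown libraries, whereas summed CPT1 FPKM was 31.6, 33.3 and 34.2 and then 36.5, 38 and 39.0. Their ratio was 2.36 ± 0.0445 in control and 1.00 ± 0.0498 in knockdown libraries, and 3.45 ± 0.0837 and 1.59 ± 0.0793 with GENCODE release 29 lengths. Within CPT1, CPT1A held 96.4 ± 0.171% of FPKM in control and 98.2 ± 0.231% in knockdown libraries, and CPT1C 2.85 ± 0.264% and 0.852 ± 0.129%.

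The other genes of long-chain fatty acid handling were read from 11 lists with 148 genes, of which 119 were tested: 30 were higher, 41 lower and 48 missed the threshold, and their median was -0.06 on the log2 scale. Past 1.5-fold 6 were higher and 14 lower. Of all 16354 genes tested, 28.0% were higher and 27.9% lower, and 4.32% and 7.66% past 1.5-fold. The counts of these lists, here and below, were not tested against those shares. Of the 11 lists, that of carnitine shuttle partners and carnitine supply was the only one with a median above 0.1.

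**Figure D4:**
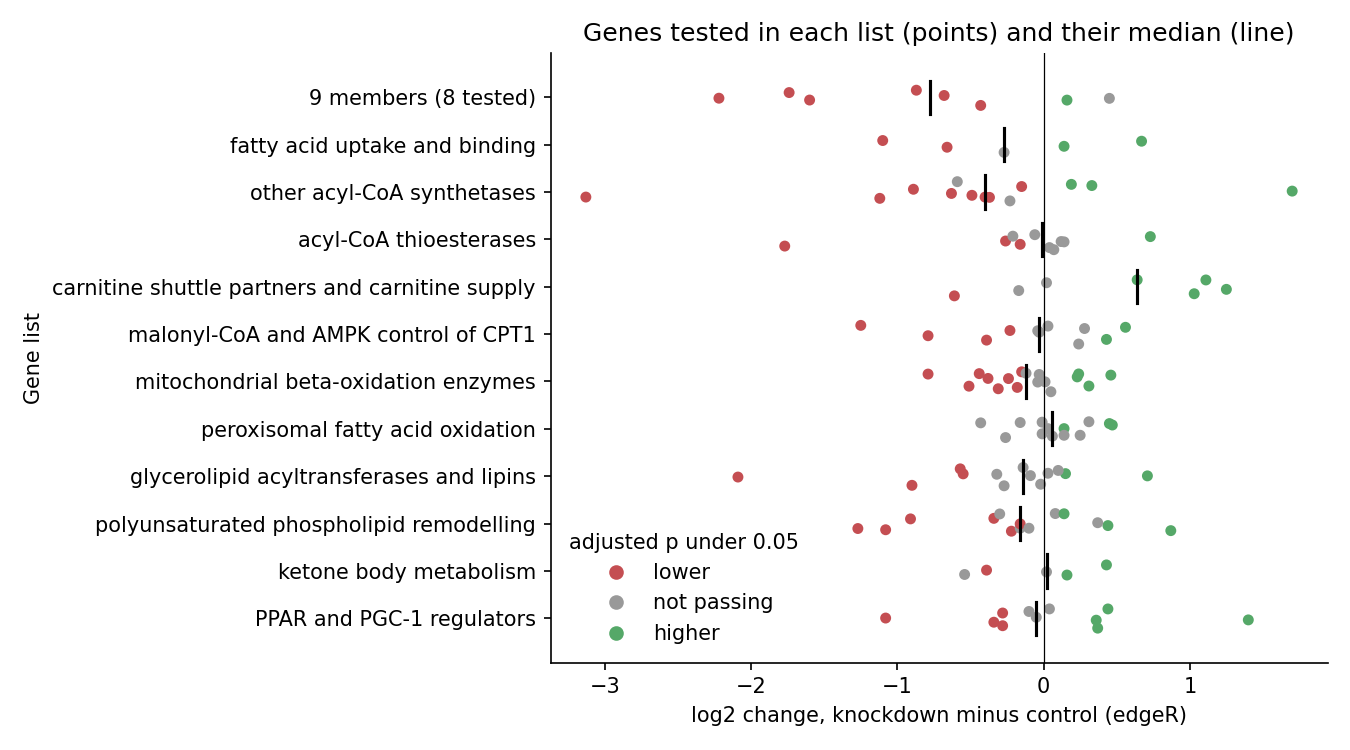
log2 change (knockdown minus control, edgeR) of each gene tested in each list, with a black line at the list's median and color for the call at an adjusted p under 0.05. The median is -0.77 for the members and 0.64 for carnitine shuttle partners and carnitine supply. It is -0.40 for other acyl-CoA synthetases and between -0.27 and 0.06 for the other lists.

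Around the uptake and activation steps, changes went both ways. Of 5 tested genes of fatty acid uptake and binding 2 were higher and 2 lower (median -0.27 on the log2 scale). The binding protein gene FABP3 fell from 19.3 to 9.40 FPKM (log2 change -1.10, SE 0.09) and DBI, whose product carries acyl-CoA esters, from 69.2 to 45.6 FPKM (-0.66, SE 0.04). CAV1, the main caveolar protein, rose from 13.2 to 21.9 FPKM, and GOT2, a mitochondrial aminotransferase also found at the plasma membrane, rose 1.10-fold. FABP5 (log2 change -0.27, SE 0.16) did not pass, except without control replicate 3 (edgeR adjusted p = 0.0355), and the fatty acid translocase gene CD36 held 6 to 25 counts per library and was not tested.

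Of 13 tested other acyl-CoA synthetases 8 were lower and 3 higher, at a median of -0.40, while 2 missed the threshold. By limma on log2(FPKM + 0.1) 2 were lower, and 4 without its filter of 1 FPKM. ACSS2, which activates acetate rather than long-chain fatty acids, fell 8.75-fold, from 78.1 to 9.30 FPKM. Among the SLC27 transport proteins, which act on long and very long chains, SLC27A3 fell 1.86-fold from 3.15 FPKM and SLC27A4 rose from 17.3 to 22.7 FPKM (log2 change 0.33). SLC27A2 was at 12.7 and 15.1 FPKM (edgeR adjusted p = 0.0203). Its call did not hold in DESeq2 (0.0603) or without control replicate 1 (0.0538) or 2 (0.119) or knockdown replicate 1 (0.139). The thioesterases, which cleave acyl-CoA back to fatty acid, were mostly level, with 1 of 10 tested higher, 3 lower and 6 not passing. Of these, ACOT1 fell 3.41-fold from 8.73 FPKM, while its near-identical neighbor ACOT2, named after its values were seen, was at 7.76 and 8.80 FPKM (edgeR adjusted p = 0.307). Reads of this pair can be hard to assign, so both values are uncertain. The peroxisomal ACOT8 was at 4.95 and 4.32 FPKM (edgeR adjusted p = 0.0148), a call lost without control replicate 1 (0.0656) or knockdown replicate 3 (0.0847) and by limma (0.0699 to 0.171).

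Of 7 tested carnitine shuttle partners and genes of carnitine supply, 4 were higher, 1 was lower and 2 missed the threshold. Of all genes tested, 28.0% were higher. The median of this list was 0.64 on the log2 scale. SLC25A20 encodes the carrier between CPT1 and CPT2. It was at 6.48, 8.10 and 6.83 FPKM in control and 10.44, 11.96 and 12.18 FPKM in knockdown libraries, and the fitted log2 change was 0.64 (SE 0.10; edgeR adjusted p = 4.51e-06) with no overlap. CROT, the peroxisomal octanoyltransferase, rose 2.16-fold from 0.893 FPKM, and the organic cation transporter gene SLC22A4 2.38-fold from 1.60 FPKM. SLC22A5, the main plasma membrane carnitine transporter and named after its values were seen, rose 2.04-fold from 0.743 FPKM. CRAT, which acts on short chains, fell 1.52-fold. The carnitine-synthesis gene BBOX1 was near 0 in both groups.

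The genes that set malonyl-CoA, the inhibitor of CPT1, were 2 higher, 4 lower and 5 not passing of 11 tested (median -0.03). ACACA, the main acetyl-CoA carboxylase of lipogenesis, was at 21.87, 22.62 and 22.27 FPKM in control and 12.94, 13.44 and 13.98 FPKM in knockdown libraries, 1.73-fold lower (edgeR adjusted p = 6.46e-16). ACACB, the carboxylase at the mitochondrial surface, was at 1.54 and 1.57 FPKM (edgeR adjusted p = 0.736), and MLYCD, which breaks malonyl-CoA down, at 0.123 and 0.150 FPKM (edgeR adjusted p = 0.449). Among subunits of AMPK, the kinase that inactivates both carboxylases, the catalytic PRKAA2 fell 2.37-fold from 21.7 FPKM, and the regulatory PRKAB1 and PRKAG2 rose 1.48-fold and 1.34-fold. The other catalytic subunit gene, PRKAA1, named after its values were seen, was more abundant and fell only 1.17-fold, from 42.3 to 37.7 FPKM. The regulatory PRKAB2 and PRKAG1, also named after their values were seen, did not pass.

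Downstream of CPT2, 8 of 17 tested genes of mitochondrial beta-oxidation were lower and 4 higher, while 5 missed the threshold; the median was -0.12 and 1 was lower past 1.5-fold. That gene was ACADVL, the dehydrogenase for very long chains, at 71.47, 72.66 and 65.80 FPKM in control and 41.90, 41.58 and 43.29 FPKM in knockdown libraries (1.73-fold lower; edgeR adjusted p = 9.09e-16). HADHA, a subunit of the trifunctional protein that handles long chains, fell 1.30-fold from 84.3 FPKM and ACAD10 1.42-fold from 1.98 FPKM. The 4 genes that rose were ACADM (1.18-fold), ECHS1 (1.24-fold), the dienoyl-CoA reductase DECR1 (1.38-fold) and HADHB (1.17-fold), the other trifunctional subunit, named after its values were seen. In the peroxisomal list 3 of 13 tested were higher, 0 lower and 10 not passing (median 0.06). The transporter ABCD3 rose 1.39-fold and the thiolase ACAA1 1.37-fold.

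On the storage side, 2 of 13 tested glycerolipid acyltransferases and lipins were higher, 4 lower and 7 did not pass (median -0.14). LPIN1, a phosphatidate phosphatase and transcriptional co-regulator, was at 12.83, 13.63 and 12.21 FPKM in control and 3.25, 3.32 and 2.92 FPKM in knockdown libraries, 4.25-fold lower (edgeR adjusted p = 8.05e-22). LPIN2 fell 1.87-fold from 10.4 FPKM and DGAT1, which makes triglyceride, 1.48-fold from 4.22 FPKM. DGAT2 was at 1.11 and 0.930 FPKM (edgeR adjusted p = 0.0525), a call that appeared without control replicate 2 (0.0115) or knockdown replicate 2 (0.0439) and with median-of-ratios factors (0.0473). GPAM, the mitochondrial glycerol-phosphate acyltransferase, which competes with CPT1 for acyl-CoA, rose 1.64-fold from 2.87 FPKM. GPAT4 was at 9.63 and 11.1 FPKM (edgeR adjusted p = 0.0182), a call lost without control replicate 1 (0.183) or knockdown replicate 3 (0.150) and with DESeq2 (0.0580).

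The list of polyunsaturated phospholipid remodelling, where ACSL4 products are used, also holds genes that do not remodel phospholipids, such as AIFM2 and GPX4. Of its 14 tested genes 3 were higher, 6 lower and 5 did not pass (median -0.16). LPCAT3, which inserts arachidonate into phospholipids, fell 2.11-fold from 11.2 FPKM and LPCAT4 2.40-fold from 15.5 FPKM. AIFM2, which encodes the ferroptosis suppressor FSP1, rose 1.82-fold from 9.37 FPKM and LPCAT2 1.36-fold from 1.83 FPKM. GPX4, the phospholipid hydroperoxidase, was at 57.4 and 66.2 FPKM (log2 change 0.14; edgeR adjusted p = 0.00731), a call lost without control replicate 2 (0.0879) or knockdown replicate 2 (0.0550).

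Of 5 tested ketone body genes 2 were higher, 1 lower and 2 did not pass (median 0.02). BDH2 rose 1.35-fold and OXCT1, which uses ketone bodies, 1.12-fold. Of 11 tested PPAR and PGC-1 regulators, which control genes of fatty acid oxidation including CPT1A, 4 were higher, 4 lower and 3 did not pass (median -0.05). PPARA, the main fatty acid sensor of liver, fell 2.12-fold from 3.18 FPKM, and its partner RXRB fell 1.27-fold (not called by limma on TPM, adjusted p = 0.0539) while RXRA rose 1.36-fold. PPARGC1A, the co-activator PGC-1alpha, was at 0.75, 0.75 and 0.76 FPKM in control and 2.25, 2.18 and 1.79 FPKM in knockdown libraries, 2.64-fold higher (edgeR adjusted p = 1.98e-11).

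All 9 members carry the deposited annotations fatty acid degradation and PPAR signaling. Without the members, the first held 28 tested genes, of which 10 were higher, 7 lower and 11 not passing (median 0.09), with 0 higher and 1 lower past 1.5-fold. The second held 45, of which 12 were higher, 19 lower and 14 not passing (median -0.14), with 5 higher and 13 lower past 1.5-fold. Both were counted after the data had been seen.

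Over the 6 libraries, the listed gene nearest to each member was sought by the root mean square distance between log2 CPM values centered on each gene's mean. For ACSL1 it was LPIN1 (distance 0.117), for ACSL3 DBI (0.0247), for ACSL4 LPIN2 (0.0372), followed by ACACA (0.0549), and for ACSL5 ACOT1 (0.0962). For CPT1A it was GOT2 (0.0391), followed by OXCT1 (0.0405), for CPT2 SLC27A5 (0.0539), for CPT1C LPCAT4 (0.118) and for CPT1B BDH2 (0.113). The distance mostly reads how far each gene moved between the groups.

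The members' directions held under every processing tried. Over 16 settings the log2 change ranged from -2.28 to -1.85 for ACSL1, -1.80 to -1.48 for ACSL5, -0.89 to -0.73 for ACSL4, -0.71 to -0.55 for ACSL3, 0.12 to 0.29 for CPT1A and -0.47 to -0.26 for CPT2. Over the 12 settings that tested them it ranged from -1.75 to -1.30 for CPT1C and from 0.22 to 0.59 for CPT1B, which passed in none (smallest adjusted p = 0.230, over edgeR, DESeq2 and limma). The call of CPT1A held in all 16, with the largest edgeR adjusted p of 0.0398 without control replicate 1.

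**Figure D5:**
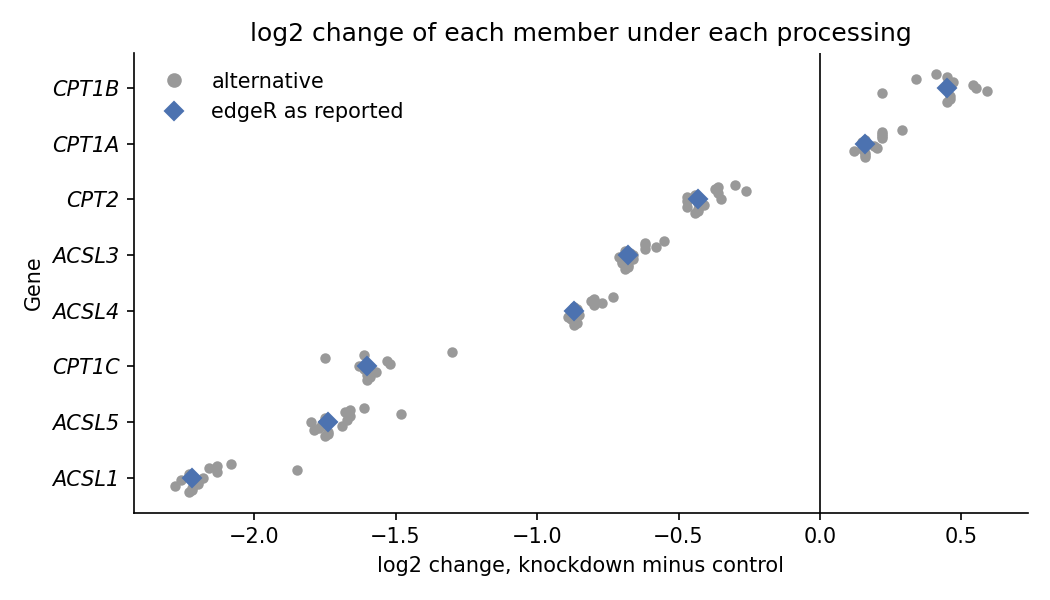
log2 change (knockdown minus control) of each member tested under the reported edgeR fit (diamond) and under each alternative (points: other tools, factors, filters, pseudocounts, a replicate block and each library left out). No member crosses 0; CPT1A stays between 0.12 and 0.29 and ACSL1 between -2.28 and -1.85.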

How the data were processed

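The authors deposited, per the file headers, raw read counts and FPKM for every gene in each of 6 libraries, with exonic lengths in bases (a unit other than expression), on build hg38, per the submitters' processing notes. No source used here names the aligner, counter, annotation release or strand setting. FPKM recomputed from count, length and library total matched within 0.0051. RNA came by Trizol and libraries by a TruSeq kit, per the labels' protocols, which call the source HPC without explaining it.

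Groups of 3 were compared by edgeR 4.0.16 under R 4.3.3 (TMM, filterByExpr, quasi-likelihood F test, two-sided; glmTreat for a minimum of 1.5-fold). Benjamini-Hochberg adjustment covered 16354 genes, at a threshold of 0.05. The fit was tested on simulated counts whose spread was estimated from these same libraries. That test cannot show how the p-values would hold for separate cultures. SE is the log2 change over the square root of F. Alternatives were DESeq2 1.42.0, other factors, no filter, a replicate block, leaving out each library, and limma 3.58.1 on log2(FPKM + 0.1) (mean 1 FPKM or more; also pseudocounts 1 and 0.01, no filter, and TPM rescaled from FPKM). No 2 libraries were identical, and chi-square per gene within groups was 1.89 or more.

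Members and lists were chosen with earlier results of these data known. Named genes were the members, LAPTM4B, up to 2 largest called increases and 2 largest decreases per list whose higher group averaged 1 FPKM or more, and a set chosen by role. Some genes under this rule are not reported here. Overlaps and alternative lengths used GENCODE release 29; likeness used log2(CPM + 0.5). Python 3.11.15, pandas 2.3.3 and matplotlib 3.10.9 made tables and plots.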

Additional observations from a re-analysis of the deposited data

How the results depend on the processing

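The 8 members tested kept their direction in every alternative, and CPT2 lost its call once, by limma on log2(TPM + 0.1) (log2 change -0.30, adjusted p = 0.0509). In that fit the median log2 change of all genes tested was 0.14, against 0.01 by edgeR. The number of members past a minimum fold in the lower direction was 5 at 1.5-fold and 3 at 2-fold (ACSL1, ACSL5 and CPT1C), and 4 to 5 at 1.5-fold when each library was left out. CPT1C was not past 2-fold without control replicate 1 (edgeR adjusted p = 0.0574), knockdown replicate 1 (0.0798) or knockdown replicate 2 (0.08). Genes called lower numbered 4559 by edgeR, 2915 by limma on log2(FPKM + 0.1), 2925 with a pseudocount of 1, 2900 with 0.01, 3142 without the filter and 2330 on TPM; the cause was not tested. Listed genes called lower went from 41 to 24 on TPM. By limma on log2(FPKM + 0.1), which drops genes averaging under 1 FPKM, other acyl-CoA synthetases called lower went from 8 to 2. Without the filter they numbered 4. Thioesterases called lower went from 3 to 1 and mitochondrial beta-oxidation genes from 8 to 5, with or without the filter. Of the 47 named non-members tested, 1 that did not pass changed sign: ACACB went from -0.03 to 0.02 (limma on FPKM with a pseudocount of 0.1 or 0.01, and 0.1 without a filter), 0.01 (pseudocount 1) and 0.09 (TPM). Of 701 values of these genes, 674 kept direction and call, 18 lost a call and 4 gained one; the cause was not tested. CPT1B and CPT1C were under the FPKM filter of 1. As shares of raw counts, ACSL1, ACSL3, ACSL4 and ACSL5 were at 11.2%, 38.5%, 42.5% and 7.75% in control and 4.60%, 46.2%, 44.8% and 4.45% in knockdown libraries. With GENCODE release 29 lengths they were at 11.4%, 34.2%, 42.6% and 11.8% and then 4.83%, 42.1%, 46.1% and 6.94%. With the replicate number as a block, 6 members were lower and 1 higher, as without it. Deviations of same-numbered libraries from their group means correlated at 0.02, -0.05 and -0.04, and those of differently numbered ones at -0.02 to 0.06. No shared deviation was seen, but with 3 libraries per group this cannot settle whether the numbers pair the libraries. Depth limits CPT1B, CPT1C and ACSL6.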

Other observations

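An unnamed gene, ENSG00000232934, lies on the opposite strand within ACSL5 and shares 224 exonic bases with it in GENCODE release 29. It was looked at after its values were seen. It had 40, 50 and 33 counts in control and 5, 3 and 6 counts in knockdown libraries, a log2 change of -2.98 (edgeR adjusted p = 8.82e-07), in the same direction as ACSL5. Without strand in the counting, reads within the shared bases, 5.29% of ACSL5's exonic bases, cannot be told apart.

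Low transcripts also moved on the synthetase list, and these were named after their values were seen. SLC27A6 was at 0.137 and 0.467 FPKM, 3.24-fold higher (edgeR adjusted p = 0.00166), and ACSM3, a medium-chain synthetase gene, at 0.973 and 0.467 FPKM, 2.18-fold lower (edgeR adjusted p = 1.12e-05). ALOX5, which makes leukotrienes from arachidonate, fell 1.88-fold from 2.73 FPKM.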
